A study of Mus musculus with 4 samples.

Results

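Intronic Runx3 peaks far from any promoter were taken from the bound regions of splenic CD4+ DC. A peak was a member when its centre lay more than 10 kb from the nearest transcription start site (TSS) of any annotated transcript, inside a gene body and outside all annotated exons. Of the 15121 peaks in the list, 2314 met this rule, or 15.3% (Wilson 95% interval 14.7% to 15.9%). ChIP-seq, in which DNA bound by a protein is pulled down with an antibody and sequenced, was performed with a home-made polyclonal anti-Runx3 antibody on CD11chiMHCII+CD4+ splenic DC of mice. There were 2 Runx3 precipitates and 2 samples of whole cell extract chromatin, each collected from approximately 15 pooled mice. The strain label is C57BL/6 for both Runx3 samples and 1 control and C57BL/7 for the other control. The labels name no mutation, treatment or age. The authors made 1 peak call over all samples, so a peak has 1 score and no spread between replicates, and the cell type could not be checked against marker genes.

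Runx3 is a transcription factor of the RUNX family, which binds DNA through its Runt domain together with the partner protein Cbfb and recognises the core sequence TGTGGT. In DC, RUNX proteins work beside PU.1 and other ETS factors, which recognise a GGAA core. Enhancers, the distal stretches of DNA that raise transcription of a gene from afar, often lie within introns, and the gene they act on need not be the gene that holds them. The peaks below are therefore described by their host gene, with no statement on the gene they act on.

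The sequences below show chosen members at base level, on the plus strand of mm9. Each is written 5′ to 3′ in lower case. Except in the last set, each window was centred on a marked motif, so a motif in the middle is by choice. All printed members hold TGTGGT in their central 200 bp, whereas 1015 members (43.9%) do not and none of those is shown. The first set shows the RUNX hexamer at high-scoring peaks and at DC regulator genes, and capitals mark TGTGGT and the ETS core AGGAAG on either strand (ACCACA and CTTCCT on the other).
Lmtk2 (chr5:144886933-144887032): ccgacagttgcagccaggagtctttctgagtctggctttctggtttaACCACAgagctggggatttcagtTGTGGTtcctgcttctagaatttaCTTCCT
Ptprc (chr1:140033050-140033149): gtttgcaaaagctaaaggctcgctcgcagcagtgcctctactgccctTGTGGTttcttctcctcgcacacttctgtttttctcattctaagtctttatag
Mapk14 (chr17:28839809-28839908): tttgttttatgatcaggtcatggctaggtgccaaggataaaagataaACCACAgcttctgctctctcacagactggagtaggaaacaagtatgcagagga
Ikzf1 (chr11:11666235-11666334): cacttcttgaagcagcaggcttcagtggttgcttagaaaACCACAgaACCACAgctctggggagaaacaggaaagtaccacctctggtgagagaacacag
Cx3cr1 (chr9:119964003-119964102): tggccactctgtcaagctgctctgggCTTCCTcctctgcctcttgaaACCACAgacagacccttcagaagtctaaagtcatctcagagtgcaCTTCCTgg
Runx1 (chr16:92801186-92801285): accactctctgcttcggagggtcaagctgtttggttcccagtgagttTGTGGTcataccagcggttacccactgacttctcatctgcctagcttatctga
Flt3 (chr5:148200753-148200852): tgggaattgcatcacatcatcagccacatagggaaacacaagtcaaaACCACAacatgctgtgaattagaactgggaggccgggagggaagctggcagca

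The next set shows 2 joined ETS and RUNX sites, in which capitals mark GGATGTGGT, read here on the minus strand as ACCACATCC. The ETS part of this nonamer reads GGAT and lacks the GGAA core named above.
Blnk (chr19:41037722-41037781): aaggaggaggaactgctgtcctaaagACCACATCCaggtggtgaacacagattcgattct
Wdfy4 (chr14:33912421-33912480): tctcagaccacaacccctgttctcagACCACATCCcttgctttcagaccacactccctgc
In the next 2 peaks a RUNX hexamer lies beside a PU.1-type octamer, and capitals mark TGTGGT and GAGGAAGT.
Reep3 (chr10:66512140-66512239): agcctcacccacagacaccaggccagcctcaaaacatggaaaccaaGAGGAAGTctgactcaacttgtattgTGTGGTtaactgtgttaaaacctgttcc
Elmo1 (chr13:20243564-20243663): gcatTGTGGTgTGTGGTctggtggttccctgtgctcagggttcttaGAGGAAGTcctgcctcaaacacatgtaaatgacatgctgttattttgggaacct
The last set shows the central 200 bp of 2 peaks built of repeats, with capitals as in the first set.
Btbd9 (chr17:30655883-30656082): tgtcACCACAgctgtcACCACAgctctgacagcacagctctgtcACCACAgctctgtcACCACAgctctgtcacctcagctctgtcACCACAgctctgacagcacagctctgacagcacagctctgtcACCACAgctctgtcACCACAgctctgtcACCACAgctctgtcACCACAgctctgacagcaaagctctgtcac
Hs6st1 (chr1:36154313-36154512): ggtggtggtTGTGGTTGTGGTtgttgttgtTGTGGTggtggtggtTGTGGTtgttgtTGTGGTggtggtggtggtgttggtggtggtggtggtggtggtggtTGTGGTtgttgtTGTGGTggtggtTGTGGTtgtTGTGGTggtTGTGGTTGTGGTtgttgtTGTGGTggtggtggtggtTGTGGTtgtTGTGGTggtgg

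The score is the number that MACS2 wrote for each peak. Its unit is not given in the sources used here, and it served only to compare peaks of this list. Members scored between 1.47 and 198.54. Their median was 11.96 and their quartiles were 7.06 and 23.19. The median width was 389 bp. Among members 48.3% scored 12.14, the median of the list, or higher, as did 50.0% of all peaks. Among intergenic peaks farther than 10 kb from a TSS it was 51.6%, a difference of -3.33 percentage points for members (interval -6.07 to -0.58), which missed the threshold (two-sided Fisher's exact test over peaks, adjusted p = 0.055). Without joining, the differences in score from intronic peaks at 1 to 10 kb (-2.81, exact test, adjusted p = 0.084) and from promoter peaks (-2.12, exact test, adjusted p = 0.107) missed it too. With peaks under 300 bp apart joined, the difference from intergenic peaks was -3.52 and passed. Those from intronic peaks at 1 to 10 kb (-3.25) and from promoter peaks (-3.54) then passed as well. Members were narrower than peaks within 1 kb of a TSS, with 45.5% against 55.3% at or above the list's median width of 406 bp (exact test, adjusted p = 1.14e-14). Such tests treat peaks as independent counts, cover counting error only, and say nothing of the spread between mice. Members were poorer in CpG than promoter peaks. Their median GC content was 46.8% and their median ratio of observed to expected CpG 0.213, against 59.7% and 0.754 within 1 kb of a TSS.

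The highest score was that of the peak in intron 1 of Lmtk2, which encodes a membrane kinase, at chr5:144886644-144887338 with 198.54. It was followed by Btbd9 with 191.51, Hecw2, a ubiquitin ligase gene, with 186.95, and Ptprc, which encodes the leukocyte phosphatase CD45, with 183.86. The Ptprc peak (chr1:140032779-140033475) lies in intron 2, 38749 bp from the nearest TSS. The next members were those in Chchd6 with 149.22, Fam69a with 147.84, Cytip with 144.03, Reep3 with 143.76 and Mapk14 with 142.96. Cytip encodes a partner of cytohesin in leukocyte adhesion and Mapk14 a stress-activated kinase. Sos1, a Ras activator, with 141.05, Ccdc146 with 137.02 and Slc1a7 with 135.68 completed the 12 highest. TGTGGT was found somewhere in all of these peaks, and within the central 200 bp of 10 of them. The peaks in Chchd6 and Slc1a7 held it outside that part. Searched over whole peaks, 68.3% of all members and 54.0% of all peaks held TGTGGT. High-scoring peaks also had more room for it. The median width was 477 bp for members at or above the members' median score and 315 bp for those below.

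The 3 members nearest to the 10 kb limit lay 10011 bp (2610019F03Rik, score 6.57), 10011 bp (Med12l, 8.13) and 10035 bp (Mcm5, 46.24) from a TSS. The 3 intronic peaks just short of it lay at 9994 bp (Aim2, 13.43), 9984 bp (Lrrk1, 5.96) and 9979 bp (Mgat5, 3.76).

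Intron sequence far from promoters held Runx3 peaks at a higher density than intergenic sequence equally far away. The bases at which a peak centre would meet the rule, called eligible here, sum to 608 Mb, or 23.8% of the sequenced genome. They held 3.80 members per Mb, against 2.31 peaks per Mb of intergenic sequence beyond 10 kb (ratio 1.65, interval 1.56 to 1.74, two-sided exact binomial test, adjusted p = 1.10e-68). Intronic sequence 1 to 10 kb from a TSS held 7.58 per Mb, so that members reached 0.502 of its density (interval 0.473 to 0.532). The density fell with distance in both compartments, and within bands of distance the ratio was below 1.65. At 10 to 20 kb, with 932 members, it was 5.53 against 4.84 per Mb (ratio 1.14, interval 1.04 to 1.25, exact test, adjusted p = 0.0044). At 20 to 50 kb, with 943 members, it was 4.34 against 3.29 per Mb (ratio 1.32), and at 50 to 100 kb, with 322 members, 2.63 against 1.96 per Mb (ratio 1.34). Beyond 100 kb lay 117 members, at 1.17 against 0.803 per Mb (ratio 1.45, interval 1.17 to 1.79, exact test, adjusted p = 7.04e-04). The difference passed the test in each of the 4 bands. All sequenced bases were counted, although the study aligned its reads uniquely. The share of each compartment in which reads can be placed uniquely was not measured.

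**Figure D1:**
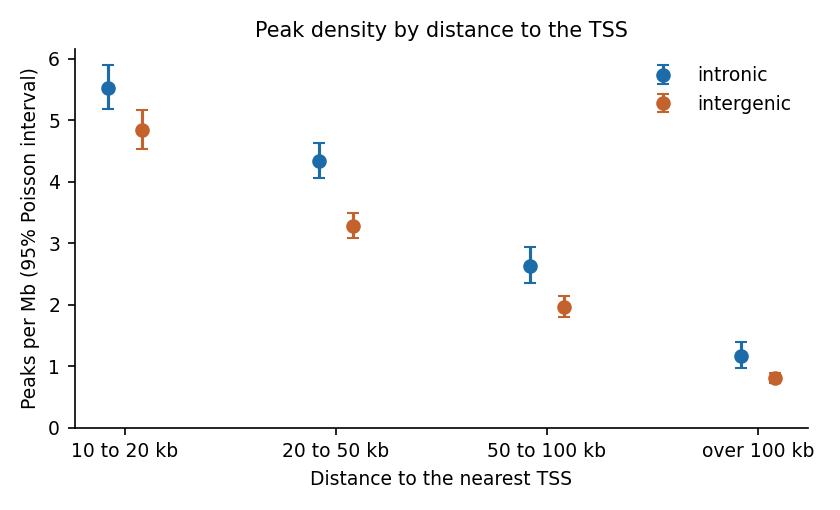
Runx3 peaks per Mb (vertical axis, points with 95% Poisson intervals) of intronic and intergenic sequence in 4 bands of distance to the nearest TSS (horizontal axis). Intronic density lay above intergenic density in each band, and both fell with distance, from 5.53 and 4.84 to 1.17 and 0.803 per Mb.

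Chromosome X held few members. It carried 21, or 0.706 per eligible Mb, against 3.96 per Mb on the autosomes (ratio 0.178, interval 0.110 to 0.273, two-sided exact binomial test, p = 6.13e-27). Median scores were 7.06 on X and 11.96 on the autosomes. The sex of the mice is not given in the labels. The density of other peak classes on X was not computed, so a trait particular to members cannot be read from these values. Without X the ratio of intronic to intergenic density beyond 10 kb was 1.61, against 1.65 with it. Among the autosomes chromosomes 19, 11 and 17 were densest, with 6.41, 5.41 and 5.20 members per Mb.

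Pooled over all genes, members were denser in first introns than in later ones. Of the 2171 members that fell in an intron of the longest protein-coding transcript of their host, 647 lay in intron 1, or 29.8% (Wilson 95% interval 27.9% to 31.8%). Intron 1 made up 22.1% of the eligible bases (two-sided exact binomial test, p = 5.01e-17). The density was 5.13 per Mb in intron 1, 4.39 in intron 2, 3.54 in intron 3, 3.46 in intron 4, 3.56 in intron 5 and 2.95 in intron 6 or later. Intron 1 is also the intron nearest to the TSS of its transcript, and density fell with distance from a TSS. The test did not separate intron rank from distance, and no comparison was made within single genes. The host intron had a median length of 30194 bp, and the median distance from the TSS of this transcript was 50956 bp. For 822 members (35.5%) the nearest TSS belonged to a gene other than the host. Members also shared introns. A total of 317 introns held at least 2, with 821 members between them (37.8% of those placed), and 481 members (20.8%) lay within 5 kb of another. Longer introns have more room for several members. These shares and that of the nearest TSS were not computed for other peaks, so they are not shown to be particular to members.

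Most hosts were protein-coding. Such genes held 2217 members (95.8%), lincRNA genes 64 and genes of processed transcripts 29. There were 1314 protein-coding hosts, of which 850 held 1 member, 251 held 2 and 49 held 5 or more. Counted over all genes that overlap a member, 1331 of 9703 protein-coding genes with eligible bases held at least 1, or 13.7%, which is the background for the lists below. Genes with a member also had a peak within 1 kb of one of their TSS more often, in 36.6% against 27.2% of genes without a member (difference 9.42 percentage points, interval 6.69 to 12.2). Among genes with over 100 kb of eligible sequence the shares were 31.8% and 12.6%, and among those with 30 to 100 kb 41.2% and 26.7%. With less eligible sequence the difference was smaller, at 6.31 points for 10 to 30 kb (35.2% against 28.8%, interval 0.43 to 12.6) and 9.23 points for up to 10 kb (39.8% against 30.5%, interval -0.76 to 20.1, which includes 0).

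The gene models with the most members were Gm20388, with 23 between 3.17 and 54.74 in score, and Fgfr2, with 13 between 2.83 and 77.43. Both are annotated over very long spans, 4434882 bp and 3009069 bp. Of the 40 members in these and Cntnap2, the other host over 2 Mb, 16 also lay in another gene, so the host name says little there. Next came Prkce, which encodes a protein kinase C, with 10 members. Their scores were 3.69, 4.23, 5.26, 5.36, 5.80, 15.73, 21.46, 35.17, 53.66 and 82.06, and 6 of them lay in intron 1. Etv6, an ETS family repressor gene, held 9, at 3.68, 6.57, 6.57, 11.96, 13.43, 20.82, 23.19, 24.06 and 76.91. Eif2c2, an Argonaute gene of small RNA silencing, also held 9, from 3.17 to 39.19, within only 65.5 kb of eligible sequence, or 137 per Mb. Pik3ap1, an adaptor of phosphoinositide 3-kinase, held 9 from 3.17 to 25.84, or 91.1 per Mb. Asap1, Pip4k2a, Elmo1 and Rad51l1 followed with 8 each. The scores in Elmo1, whose product takes part in Rac activation, were 4.23, 4.79, 4.79, 14.11, 24.25, 25.84, 27.76 and 63.02. All 8 in Pip4k2a, a phosphoinositide kinase gene, lay in intron 1 along 61771 bp, and their median score of 23.2 was the highest among these hosts.

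**Figure D2:**
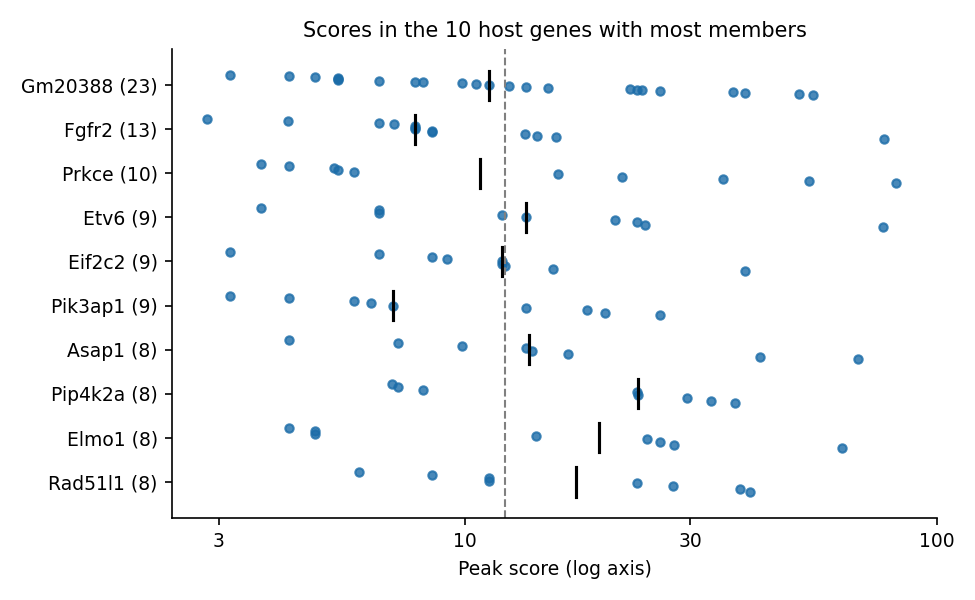
Peak score (horizontal log axis) of each member (points) in the 10 host genes with the most members, whose number stands in brackets; vertical bars mark the median of each gene and the dashed line the list median of 12.14. Scores spread widely within each gene, for Prkce from 3.69 to 82.06.

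Genes of DC regulation and of leukocyte signalling carried more members per Mb than all protein-coding genes together, which held 3.84 per Mb. The lists were chosen with earlier results of these data known, so the excess only describes them and was not tested. Peaks within 1 kb of a TSS were more common in these lists too, so the excess is not shown to be particular to members. Such a peak was found for 52.1% of transcription factor, 59.4% of signalling and 43.8% of receptor genes with eligible bases. Among all protein-coding genes with eligible bases it was 28.5%. Of 48 DC and myeloid transcription factor genes with eligible bases, 28 held a member (58.3%), with 67 members at 17.9 per Mb (95% Poisson interval 13.9 to 22.7). After Etv6 came Foxp1, a forkhead factor, with 5 members at 5.36, 7.20, 11.33, 16.10 and 46.24. Fli1, an ETS factor, also had 5, with 27.64 the highest, and Nfatc1, a calcium-responsive factor, had 4 at 7.20, 18.95, 50.07 and 68.13. Ikzf1, which encodes the lymphoid and myeloid regulator Ikaros, held 3 at 9.84, 43.03 and 86.69. Runx1, which encodes the relative of Runx3, held 4, at 3.69, 13.43, 18.95 and 27.51. Zbtb46, a marker gene of conventional DC, held 3 at 5.96, 6.85 and 14.58. Irf4, needed by CD4+ DC, held 1 at 9.16, which touches an exon edge although its centre is intronic.

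Of 69 genes for kinases, phosphatases and lipid signalling of leukocytes, 45 held a member (65.2%), with 114 members at 13.2 per Mb. Beside Prkce and Pik3ap1, Prkch, another protein kinase C gene, held 6 between 4.21 and 87.27, and Ptpre, a receptor phosphatase gene, held 4 with 100.57 the highest.

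Of 32 cytokine and chemokine receptor genes, which are short, 11 held a member (34.4%), with 14 members at 20.8 per Mb (interval 11.4 to 34.9). Flt3, the receptor for the main growth factor of DC, held 4 at 3.68, 6.57, 10.53 and 14.67. Il6ra held 1 at 82.19, Cx3cr1, a chemokine receptor, 1 at 58.54 and Il1rap 1 at 22.67. The uptake, endocytosis and antigen processing list had 17 of 50 genes with a member (34.0%), with 31 members at 7.49 per Mb. Snx29, a sorting nexin gene annotated under 2 gene IDs, held 6 and 2, Rab27a, of secretory vesicles, held 4 and Vps13d held 2. Of 43 genes of the Notch and TGF-beta pathway, 8 held a member (18.6%), with 12 members at 5.98 per Mb (interval 3.09 to 10.4). In it Maml3, a Notch coactivator gene, held 3 up to 7.84, Smad3 2 at 9.16 and 55.82, Notch2 2 at 4.79 and 20.06, and Ski 1 at 62.20. With scores from the list median upwards, 3 genes of this list held 3 members, at 1.495 per Mb, while all protein-coding genes held 1.85 per Mb.

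Neuronal genes with long introns served as a contrast. Of 46 such genes 7 held a member (15.2%), with 14 members over 45.7 Mb, or 0.307 per Mb (interval 0.168 to 0.514). Cntnap2 held 4, Dpp10 3, and Macrod2 and Magi2 2 each. Of 257 genes that the study lists as changed in Runx3-/- CD4+ DC and that have eligible bases, 70 held a member (27.2%), at 6.36 per Mb. Sash1, Ptger3, Myo1e and Cdk6 held 4 each. Of 104 genes listed for Runx3-deleted Esamhi DC it was 32 (30.8%), at 7.96 per Mb, led by Ptger3 and Runx1 with 4 each, then Cadm1 with 3 and Ptpn3 with 2. These lists differ in intron length, on which the chance of holding a member depends, and no test compared them. Kit and Runx3 themselves held no member, although each had a peak within 1 kb of a TSS.

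**Figure D3:**
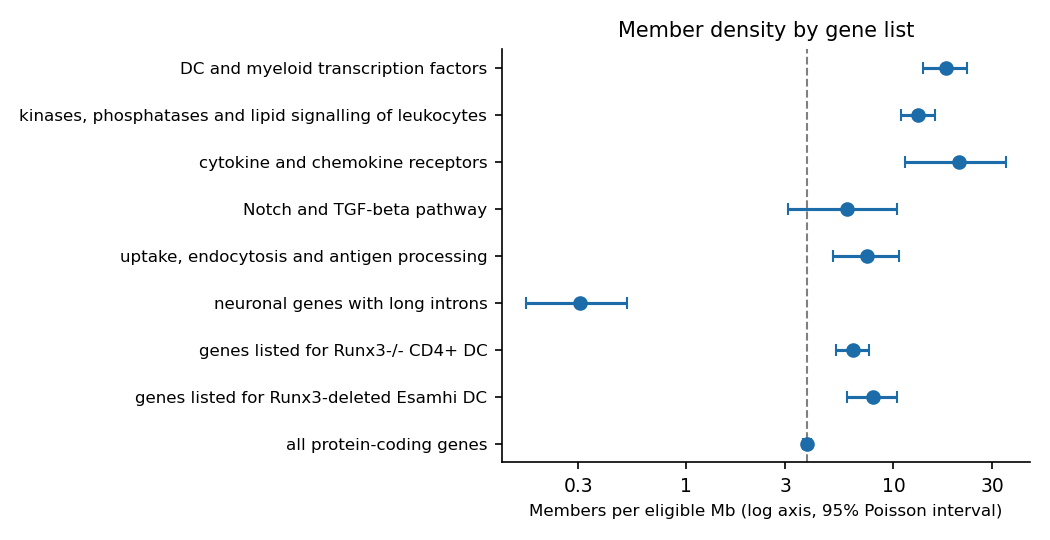
Members per Mb of eligible intron sequence (horizontal log axis, points with 95% Poisson intervals) for the gene lists and for all protein-coding genes, whose 3.84 per Mb is drawn as a dashed line. The 3 lists of transcription factors, signalling enzymes and cytokine receptors lay at 13.2 to 20.8 per Mb and the neuronal genes at 0.307. The lists were chosen with earlier results of these data known.

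The RUNX hexamer was the leading sequence of members. In the central 200 bp TGTGGT was present on either strand in 1299 members, or 56.1%, against 41.8% of all peaks. Control windows of equal width 10 kb downstream could be set for 2280 members. Of the paired members 56.2% held TGTGGT, and of their windows 14.7%, with 1085 pairs in which the peak alone held it and 139 in which the window alone did (two-sided exact McNemar test, adjusted p = 6.83e-181). With its T at base 3 left free (TGNGGT, which includes TGTGGT) the shares were 75.1% and 36.2%. The bases next to the hexamer were not even. C preceded TGTGGT in 40.6% of 1745 occurrences in members and in 23.9% of 401 in windows. T followed it in 43.8% against 29.4%. A, the base before TGTGGT in GGATGTGGT, preceded it less often in members, in 13.6% against 28.7%.

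Motifs of ETS factors came next. The core AGGAAG was in 52.1% of members and 23.6% of windows (exact test, adjusted p = 2.69e-80). The longer GAGGAAGT, the form preferred by PU.1, which contains AGGAAG, was in 13.8% against 1.32%, a ratio of 10.5 (exact test, adjusted p = 3.55e-64). The joined GGATGTGGT, which contains TGTGGT, was in 44 members and 1 window (exact test, adjusted p = 7.84e-12). The ratio depended on the windows, with 41 against 8 for windows 10 kb upstream (ratio 5.13) and 43 against 5 for those 2 kb downstream (ratio 8.60), each past the test. Because TGTGGT alone was more frequent in members, these tests cannot show a gain of the joined form beyond that of the hexamer. The highest members with GGATGTGGT were those in Ccdc146 (137.02), Wdfy2 (108.60) and Blnk (85.79), the last a gene of antigen receptor signalling. The pair of GGAA and GAA cores on which ETS and IRF factors meet (GGAANNGAA) was in 12.2% against 6.01%, the IRF repeat GAAANNGAA in 8.99% against 6.84%, the AP-1 site TGANTCA in 9.78% against 6.01%, and the NF-kappaB site GGGANTTCC in 2.19% against 0.482%. All of these passed the test. The RBPJ core TGGGAA, through which Notch signals act, was in 19.4% of members, 1.08 times its share in windows (exact test, adjusted p = 0.288), and the CTCF core AGGGGGC in 2.32% against 2.24% (exact test, adjusted p = 0.92). With windows 2 kb downstream the RBPJ difference, 2.75 percentage points, passed the test. The GATA site AGATAA was lower in members, with 8.42% against 10.5% (exact test, adjusted p = 0.021), but missed the threshold when the central part was moved by 25 bp.

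**Figure D4:**
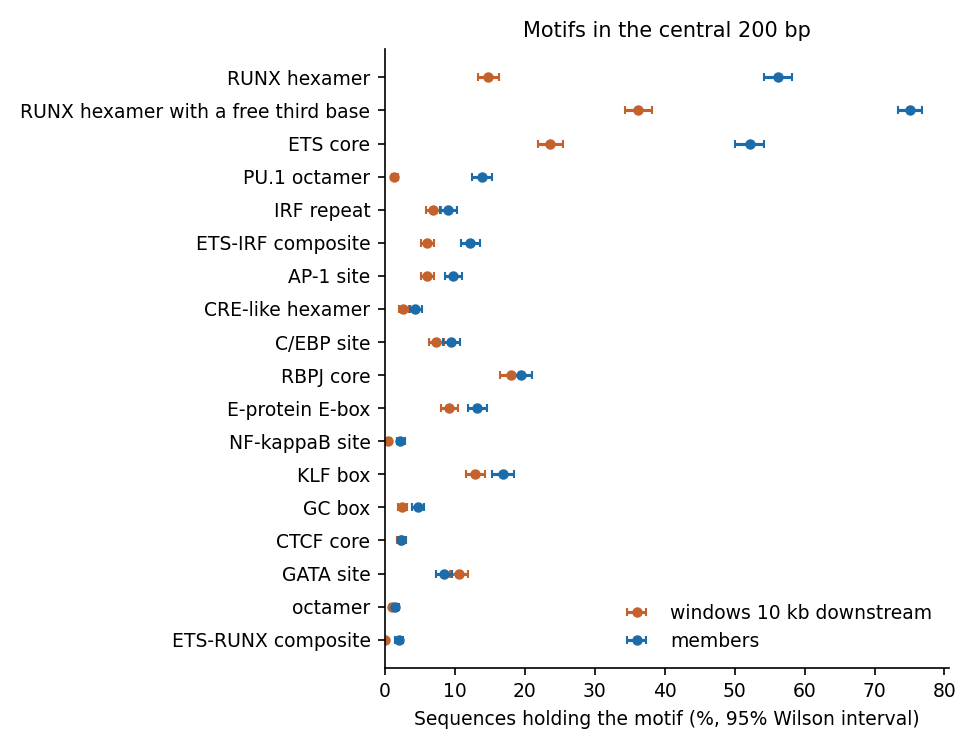
Share of sequences that hold each of 18 motifs on either strand (horizontal axis, points with 95% Wilson intervals) in the central 200 bp of 2280 members and of their windows 10 kb downstream. The RUNX and ETS motifs stood furthest apart, at 56.2% against 14.7% and 52.1% against 23.6%.

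A scan of all hexamers placed the same letters on top. Of 2080 hexamers, counted together with their reverse complement, 297 (14.3%) were more frequent in members than in windows and 347 (16.7%) less frequent, at an adjusted p under 0.05. TGTGGT ranked first, followed by GGAAGT, in 44.3% of members and 11.7% of windows, and by GTGGTT and CTGTGG, which overlap TGTGGT. The variant TGCGGT was in 8.86% against 1.45%. Among the less frequent were TTTATT, in 13.0% against 23.9%, and TATATA, in 1.93% against 7.68%. The windows were poorer in GC, with a median of 44.9% against 46.8% in members; its part in these differences was not tested.

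Compared with the other classes, members differed in motifs from promoter peaks far more than from other distal peaks. Within 1 kb of a TSS, TGTGGT was in 21.9% of central parts, a difference of 34.2 percentage points to members (interval 31.9 to 36.5, two-sided Fisher's exact test, adjusted p = 4.07e-187). GAGGAAGT was in 4.51% of these promoter peaks and 13.8% of members, and the GC box GGGCGG in 46.1% against 4.62%. From intergenic peaks beyond 10 kb members differed by 2.76 points for TGTGGT (interval 0.03 to 5.49, exact test, adjusted p = 0.125) and from intronic peaks at 1 to 10 kb by -0.16 (interval -3.02 to 2.69). Only 1 of the 18 motifs passed the test against intergenic peaks, the GC box with 4.62% against 6.46% (exact test, adjusted p = 0.014). Against intronic peaks at 1 to 10 kb, 3 passed: the GC box, at 7.38% there, the KLF box CCACCC, at 21.0% there and 16.9% in members, and the GATA site, at 6.08% there and 8.56% in members. The GATA difference did not pass when whole peaks were searched, whereas that of the CTCF core then did, with 4.62% of members against 6.34% (exact test, adjusted p = 0.033).

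RUNX hexamers went with the score, but weakly. Members without TGTGGT in the central part numbered 1015 and had a median score of 11.09. With 1 hexamer (968 members) the median was 11.96, with 2 (267 members) 14.58 and with 3 or more (64 members) 15.3. TGTGGT was in 59.3% of the 1170 members at or above the members' median score and in 52.9% of the 1144 below it, a difference of 6.43 percentage points (interval 2.39 to 10.4, two-sided Fisher's exact test, p = 0.00193). When members were split into 10 bins by score, the share did not rise steadily. It was 52.2% in bin 1, which held the lowest scores, and 48.9% and 48.5% in bins 2 and 3. In bins 4, 5, 6, 7 and 8 it was 55.6%, 58.4%, 56.7%, 55.6% and 54.1%. It was highest in bins 9 and 10, at 66.2% and 65.1%. Members with TGTGGT held the ETS core less often than those without, in 49.2% against 56.3% (difference -7.06 points, interval -11.1 to -2.97, exact test, adjusted p = 0.0079). The other 9 motifs compared in this way did not pass. The PU.1-type octamer and TGTGGT stood together in 162 members, with a median score of 15.4. The octamer was no more common beside TGTGGT, in 12.5% of members with the hexamer and 15.6% of those without. The difference was -3.10 points (interval -6.00 to -0.26, exact test, adjusted p = 0.169). No RUNX hexamer of either form, ETS core, AP-1 site or IRF repeat was found in the central part of 191 members (8.25%), whose median score was 11.2. This combination was not counted in other peak classes.

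The hexamers lay close to the peak centre, with an offset. Of the members, 1642 had a TGTGGT within 250 bp of the centre, and the nearest lay at a median of 42.5 bp. Counted along the genome, the density was highest on the side of the higher coordinates. It was 5.81 per kb at 0 to 25 bp, 5.86 at 25 to 50 bp and 4.91 at 50 to 75 bp. On the other side it was 3.94 at 0 to 25 bp, 3.01 at 25 to 50 bp and 2.23 at 50 to 75 bp. Within 150 bp, 62.1% of 2105 occurrences lay on the higher side, at a median of 20 bp. Both orientations showed it, with medians of 17 bp for TGTGGT on the plus strand and 25 bp on the minus strand. Other peak classes showed the offset too, with medians of 21 bp in intergenic peaks beyond 10 kb and 18 bp within 1 kb of a TSS.

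**Figure D5:**
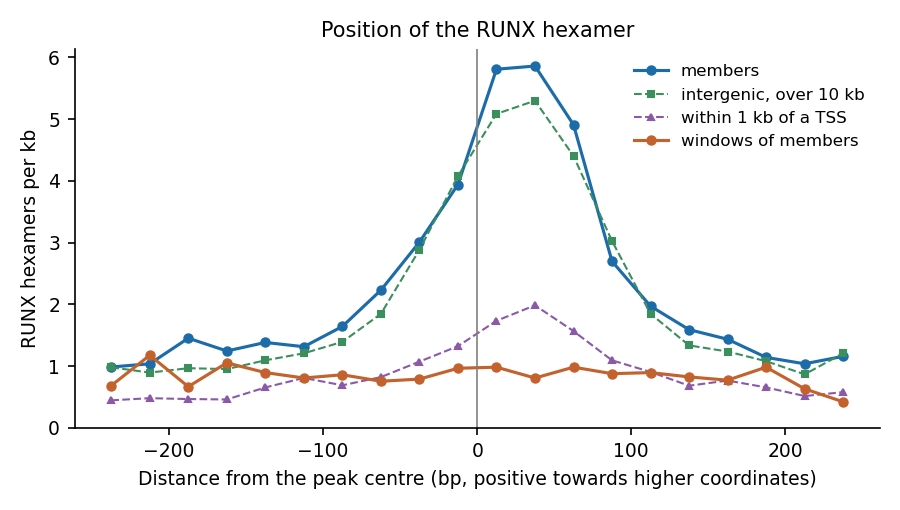
RUNX hexamers per kb in bins of 25 bp (vertical axis) by distance from the peak centre (horizontal axis, positive towards higher coordinates), for members, their windows 10 kb downstream and 2 other peak classes. Members peaked at 5.86 per kb at 25 to 50 bp on the higher side, and the classes shared the offset.

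Some members were tandem repeats. The peak in intron 4 of Btbd9 (chr17:30655471-30656495), second by score, held TGTGGT 26 times, and 88.2% of the bases in its centre equalled the base 14 further on. The peak in Hs6st1, a heparan sulfate enzyme gene, also held it 26 times and scored 56.92. In its centre 87.1% of the bases equalled the base 30 further on. Its printed sequence consists largely of the 3-base units GGT and TGT, so 30 is the shift of best match rather than the repeat unit. Equality of at least 70% at any period of 2 to 60 bases was found in 8 members, a limit chosen after the values were seen, and 3 of these held at least 3 TGTGGT in the centre. Among the others, the peak in Ptpn3 scored 84.58 without any TGTGGT. The median of this measure over members was 34.2%, and other peak classes were not measured.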

How the data were processed

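Runx3 ChIP-seq was performed on CD4+ splenic DC, with 2 precipitates and 2 whole cell extract controls, fragments near 300 bp in length and 50 bp reads. Per the submitters' processing notes the authors used CASAVA 1.8, Bowtie and MACS2 on mm9. The deposited list gives each peak of 1 pooled call a score written by MACS2. Other versions, thresholds and the unit of the score are not given in the sources used here. The study gives read totals for the pooled samples alone, which are not used here, and the list holds no read counts, so intervals cover counting error of peaks only, and the absence of a peak means that none was called.

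Peaks were placed by their centre on GENCODE M1 genes, and sequences were read from NCBIM37, the same assembly. Scores were used as deposited. Densities were compared by exact binomial tests with exact intervals, members with windows by exact McNemar tests, and classes by Fisher's exact tests with Newcombe intervals, all two-sided, with Benjamini-Hochberg adjustment within each family. Shares have Wilson intervals at the 95% level. Alternatives were score limits, joined peaks (gap under 300 bp), limits of 5 kb and 20 kb, protein-coding TSS, whole peaks, autosomes, upstream and 2 kb windows, and TGNGGT. Supplementary gene tables of the study served as symbol lists only, without their values.

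Named genes were the hosts of the 12 highest scores, the 10 with the most members, the 4 of each list with the most, genes the study names that hold a member, and those at the distance limit; Runx1, Ikzf1, Blnk, Wdfy2, Wdfy4, Hs6st1 and Ptpn3, where shown for their sequence or repeat, and Kit and Runx3 without a member, were added. A gene list and a sequence are not reported here. The members and lists were chosen with earlier results of these data known. Tests were checked on simulated data. Tests ran in scipy 1.17.1 under Python 3.11.15, tables in pandas 2.3.3 with numpy 2.4.6, and figures in matplotlib 3.10.9.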

Additional observations from a re-analysis of the deposited data

How the results depend on the processing

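No paired analysis was possible because the list is 1 call over all samples; for the same reason no replicate could be left out. The number of members was 1117 with scores from the list median upwards, 586 from the upper quartile upwards and 1382 with a limit of 20 kb, as fewer peaks qualify, and host genes fell to 812 from the median upwards. The share with TGTGGT in the central part was 59.4% and 63.3% under the 2 score limits. The ratio of intronic to intergenic density stayed between 1.54 and 1.70, and the share in intron 1 between 26.5% and 33.9%, each past its test. These alternatives did not match the distance to the TSS. Within bands of distance the density ratio was lower, from 1.14 at 10 to 20 kb to 1.45 beyond 100 kb. With joined peaks the difference in score from intergenic peaks, -3.52 points, passed the threshold. So did those from intronic peaks at 1 to 10 kb (-3.25 in score, -3.45 in width) and from promoter peaks (-3.54 in score). None of these passed without joining, and the cause was not tested. From the list median upwards the genes with a member fell to 3 in the Notch and TGF-beta list, and to 46 and 21 in the lists from the study. The CTCF core gained a call in whole peaks, the RBPJ core with windows 2 kb downstream, and TTGCNNAA lost its call with upstream windows. In whole peaks, differences that had not passed changed sign: GAGGAAGT against intronic peaks at 1 to 10 kb (-0.054 points), GAAANNGAA (-0.0063 against intergenic and 0.37 against these intronic peaks), GGAANNGAA (-0.65) and TTGCNNAA (0.23) against intergenic peaks. At the upper quartile the difference in score from promoter peaks was 0.82 points. Alternatives chosen after seeing the data, leaving out the 3 hosts over 2 Mb and moving the central part by 25 bp, left these calls as they were, except that the GATA site missed the threshold with the moved centre. Depth and replicates limit all values: a region below the call has no score, and no value here has a spread between mice.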
